A study of Mus musculus with 2 samples.

Results

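The integrated stress response genes described here are Atf4, Atf5, Atf3, Ddit3, Ddit4, Asns, Trib3, Chac1, Nupr1 and Mthfd2. They were chosen by name, as 10 known genes of this response that occur in both gene lists, out of 16544 genes that the P12 and P24-30 files share. The samples are 2 Drop-seq libraries of medulloblastoma cells, a cerebellar tumour, from hGFAPcre;Ptch c/c mice, 1 taken at postnatal day 12 (P12) and 1 at postnatal days 24 to 30 (P24-30). Drop-seq captures single cells in droplets with barcoded beads and counts the 3′ ends of their transcripts. In both groups Cre is driven by the human GFAP promoter and acts on floxed Ptch, the gene of the Hedgehog receptor and brake on that pathway, so no group without the deletion was compared. Tumours were dissociated to single cells with TrypLE and collagenase before capture, and no source used here gives the number of animals behind a library. With 1 library per age, no test between ages can be made, and effects of age and of library preparation cannot be told apart. All intervals below are exact 95% intervals of counts or shares and cover counting error only.

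In the integrated stress response, kinases that sense amino acid shortage, unfolded protein in the endoplasmic reticulum, haem shortage or double-stranded RNA phosphorylate the translation factor eIF2. General translation then falls, while the mRNA of ATF4 is translated more, through short reading frames upstream of its coding region. ATF4 is a transcription factor that, with C/EBP-family partners, turns on genes for amino acid synthesis, amino acid import and tRNA charging. Under lasting stress it also turns on Ddit3, which encodes CHOP, a factor tied to cell death. Because ATF4 is set largely by translation, its own transcript level is an incomplete measure of the response, and its targets are commonly read beside it.

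ATF4 and its partners bind composite C/EBP-ATF elements, and the letters TGATGNAA are one short form of them. The promoter windows of the 10 genes were searched for these letters on both strands, because targets of ATF4 can share this element. Each window ran from 250 bases before to 50 bases after a RefSeq transcript start (table build GRCm38.p6). The letters were found in the windows of 5 genes and not in those of the other 5, which are Atf4, Atf5, Ddit3, Ddit4 and Mthfd2. Of all 32851 windows, 3.97% held them, and of all 27025 genes 4.51%. Each stretch below is written 5′ to 3′ on the strand of its gene, with the matching letters in capitals.
Atf3: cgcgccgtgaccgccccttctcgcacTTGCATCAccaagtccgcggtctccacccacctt
Asns: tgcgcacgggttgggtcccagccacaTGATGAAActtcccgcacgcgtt
Trib3: tagctcaggtTTACATCAgccgggcg
Chac1: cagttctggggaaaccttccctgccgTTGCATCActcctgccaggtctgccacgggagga
Nupr1: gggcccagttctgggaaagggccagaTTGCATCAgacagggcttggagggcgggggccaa
The Atf3 stretch is chr1:191183410-191183469 on the minus strand, and its match, TGATGCAA on the opposite strand, begins 110 bases before the start. The Asns stretch is chr6:7693210-7693258 on the minus strand, with TGATGAAA on the gene's own strand 23 bases before the start. The Trib3 stretch is chr2:152344031-152344056 on the minus strand, and its match, TGATGTAA on the opposite strand, begins at base 15 of the transcript. The Chac1 stretch is chr2:119351023-119351082 on the plus strand, and its match begins 193 bases before the start. The Nupr1 stretch is chr7:126625547-126625606 on the minus strand, and its match begins 110 bases before the start. Both hold TGATGCAA on the opposite strand, as Atf3 does. The Atf3, Nupr1 and Mthfd2 starts used, and 1 of the 2 Atf5 starts, lie inside longer gene models of GENCODE vM21, so other starts of these genes were not searched. A match describes letters only and does not show binding.

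After filtering, the P12 library held 5723 cells with 11873881 transcript counts (UMIs) and the P24-30 library 4789 cells with 12094028. The median UMIs per cell were 1805 and 2193, and the median mitochondrial share was 7.51% and 2.91%. Levels are CPM, the UMIs of a gene scaled to the summed UMIs of a group of cells, where 1 UMI in a whole library is worth 0.0842 CPM at P12 and 0.0827 CPM at P24-30. Since 3′ ends were counted, CPM were not divided by gene length. Shares of cells and classes were taken after each cell had been reduced at random to 1000 UMIs, which removes differences in depth and leaves out 158 and 202 shallower cells. Cycling cells (at least 12 UMIs of 95 S and G2/M markers) made up 62.7% of P12 and 48.5% of P24-30 cells, and neuron-like cells (at least 10 UMIs of 18 neuron markers) 11% and 16.6%. The P24-30 file carries no cell barcodes, so barcodes shared with the P12 library could not be counted.

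All 10 genes had UMIs in both libraries, and their order of level was the same in both. Atf4, the central transcription factor (chr15:80255184-80257541, plus strand), was the most abundant, with 2709 UMIs and 228.1 CPM (219.6 to 236.9) at P12. At P24-30 it had 2023 UMIs and 167.3 CPM (160.1 to 174.7). After reduction to equal depth, 19.5% of P12 cells and 15.4% of P24-30 cells had an Atf4 UMI, against 33.9% and 30% before it.

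The metabolic enzymes came next. Mthfd2, a mitochondrial enzyme of one-carbon metabolism (chr6:83305691-83325908, minus strand), had a P12 level of 74.03 CPM and a P24-30 level of 56.14 CPM. Asns, which makes asparagine (chr6:7675169-7693254, minus strand), stood at 59.04 and 43.66 CPM. Chac1, which degrades glutathione (chr2:119351229-119354381, plus strand), was far lower, at 8.675 CPM and, from 31 UMIs, 2.563 CPM.

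Of the regulators, Ddit4, an inhibitor of mTORC1 signalling also known as REDD1 (chr10:59949669-59951834, minus strand), stood between Mthfd2 and Asns, at 59.37 and 49.53 CPM. Its P12 value was within counting error of that of Asns. Atf5, a transcription factor translated under eIF2 phosphorylation like Atf4 (chr7:44812256-44816658, minus strand), had 42.61 and 26.38 CPM. Ddit3 (chr10:127290774-127296288, plus strand) had 28.72 and 23.23 CPM.

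Nupr1, Atf3 and Trib3 were also low, and the 3 lowest of all were Chac1, Atf3 and Trib3. Nupr1, a small stress-induced nuclear protein (chr7:126623249-126630861, minus strand), had 13.39 and 10.58 CPM. Atf3, a stress-induced repressor of transcription (chr1:191170296-191218039, minus strand), had 52 UMIs at P12 and 15 at P24-30, or 4.379 and 1.24 CPM. Trib3, a pseudokinase that ATF4 induces and that restrains it in turn (chr2:152337422-152344032, minus strand), had 19 and 4 UMIs. These low counts limit what can be said of Trib3, Atf3 and Chac1 in any smaller group of cells.

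No cell type here is known to lack these genes, so the microglia-like cells, at 2098.5 and 2226.5 median UMIs, served as the nearest check of RNA released into all droplets. Of the 76 microglia-like P12 cells, 9.21% had an Atf4 UMI, 1.32% each a Mthfd2 or Ddit4 UMI and 0% an Asns UMI, all below the library's shares. The P12 shares of Ddit3 (2.77%) and Nupr1 (1.15%) lay below their shares in microglia-like cells (3.95% for each), and the same order was seen for Atf3. At P24-30 the Atf4 share of 15.4% lay below the 18.8% of the 48 microglia-like cells. Library-wide shares of these genes are therefore not read as expression, and the comparisons below rest on levels that differ between classes. No other gene's transcripts matched the last 300 bases of any of the 10 over at least 60 bases at 90% identity or more. The longest protein-coding transcript of each gene was searched, and shorter matches were not counted. Ddit3 overlaps Mars and Gm4189 on the opposite strand, Atf5 overlaps Il4i1 and Nup62, Atf3 overlaps Gm24748, and Mthfd2 lies over Gm43890. Whether counting used strand is not stated, so overlapping transcripts cannot be told apart.

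In P12 tumour cells the amino acid and one-carbon genes were highest in cycling cells, Ddit4 was higher outside them, and Ddit3 was higher in neuron-like cells. Mthfd2 had 782 UMIs and 97.8 CPM (91 to 105) in the 3492 cycling cells, and 9 UMIs and 9.16 CPM (4.19 to 17.4) in the 613 neuron-like cells, a ratio of 10.7 (5.59 to 23.4). Asns stood at 71.1 CPM (65.4 to 77.2) against 23.4 CPM (14.8 to 35.1), a ratio of 3.04 (2 to 4.83). Atf5 stood at 49.1 against 20.4 CPM, a ratio of 2.41 (1.54 to 3.99). For each of these the intervals of both classes did not overlap. Nupr1 had 137 UMIs in cycling cells and 0 in neuron-like cells. With a floor of 3 counts over the class in place of 0, the ratio was 5.61, and its exact lower limit was 4.5. Chac1 had 89 against 3 UMIs, a ratio of 3.64 (1.21 to 18). Atf4 itself differed little, at 249 CPM (238 to 260) against 209 CPM (181 to 239), a ratio of 1.19 (1.03 to 1.38).

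Ddit4 and Ddit3 had the opposite order. Ddit4 stood at 34.9 CPM (30.9 to 39.2) in cycling and 106 CPM (86.5 to 128) in neuron-like P12 cells, a ratio of 0.329 (0.262 to 0.417). Ddit3 stood at 26.3 CPM (22.8 to 30.1) against 56 CPM (42.2 to 72.9), a ratio of 0.469 (0.347 to 0.643). Mars, which overlaps Ddit3 on the other strand, had the reverse order, with a ratio of 1.9 (1.46 to 2.52). Of the 8 genes with at least 50 UMIs in both classes together, 5 were at least 1.5-fold higher in cycling cells, beside 24.7% of the 10562 genes compared, and 2 were lower, beside 21.1%. Their median log2 ratio was 1.44, against 0.03 over those 10562 genes. The minimum was on the 2 classes summed, so a gene could pass through the larger cycling class alone. All 5 higher genes had under 50 UMIs in neuron-like cells, among them Nupr1 with 0 and Chac1 with 3. The count and the median are therefore a description only. Atf3 (27 against 0 UMIs) and Trib3 (17 against 1) were below the minimum, so these counts do not cover all 10 genes.

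The P24-30 library had the same order of classes for all 7 genes compared, with Atf4 at a ratio of 1.33 (1.15 to 1.55). Mthfd2 stood at 84.7 CPM in 2226 cycling cells and 4.76 CPM in 763 neuron-like cells, a ratio of 17.8 (8.57 to 44.4). Asns had a ratio of 4.28 (2.73 to 7.08), Atf5 of 2.81 (1.72 to 4.92) and Nupr1 of 15.8 (2.75 to 633, from 72 against 1 UMIs). Ddit4 stood at 24.4 against 97.3 CPM, a ratio of 0.25 (0.199 to 0.315), and Ddit3 at 19.9 against 37.4 CPM, a ratio of 0.531 (0.385 to 0.741). Of these 7 genes, 4 were at least 1.5-fold higher in cycling cells, beside 17.7% of 9746 genes, and 2 were lower, beside 25.6%. All 4 higher genes had under 50 UMIs in neuron-like cells, so they too passed the minimum through cycling cells. Chac1 had 26 against 1 UMIs and was not among the 7. These ratios compare cells of 1 library each time, and no interval covers a difference between tumours.

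**Figure D1:**
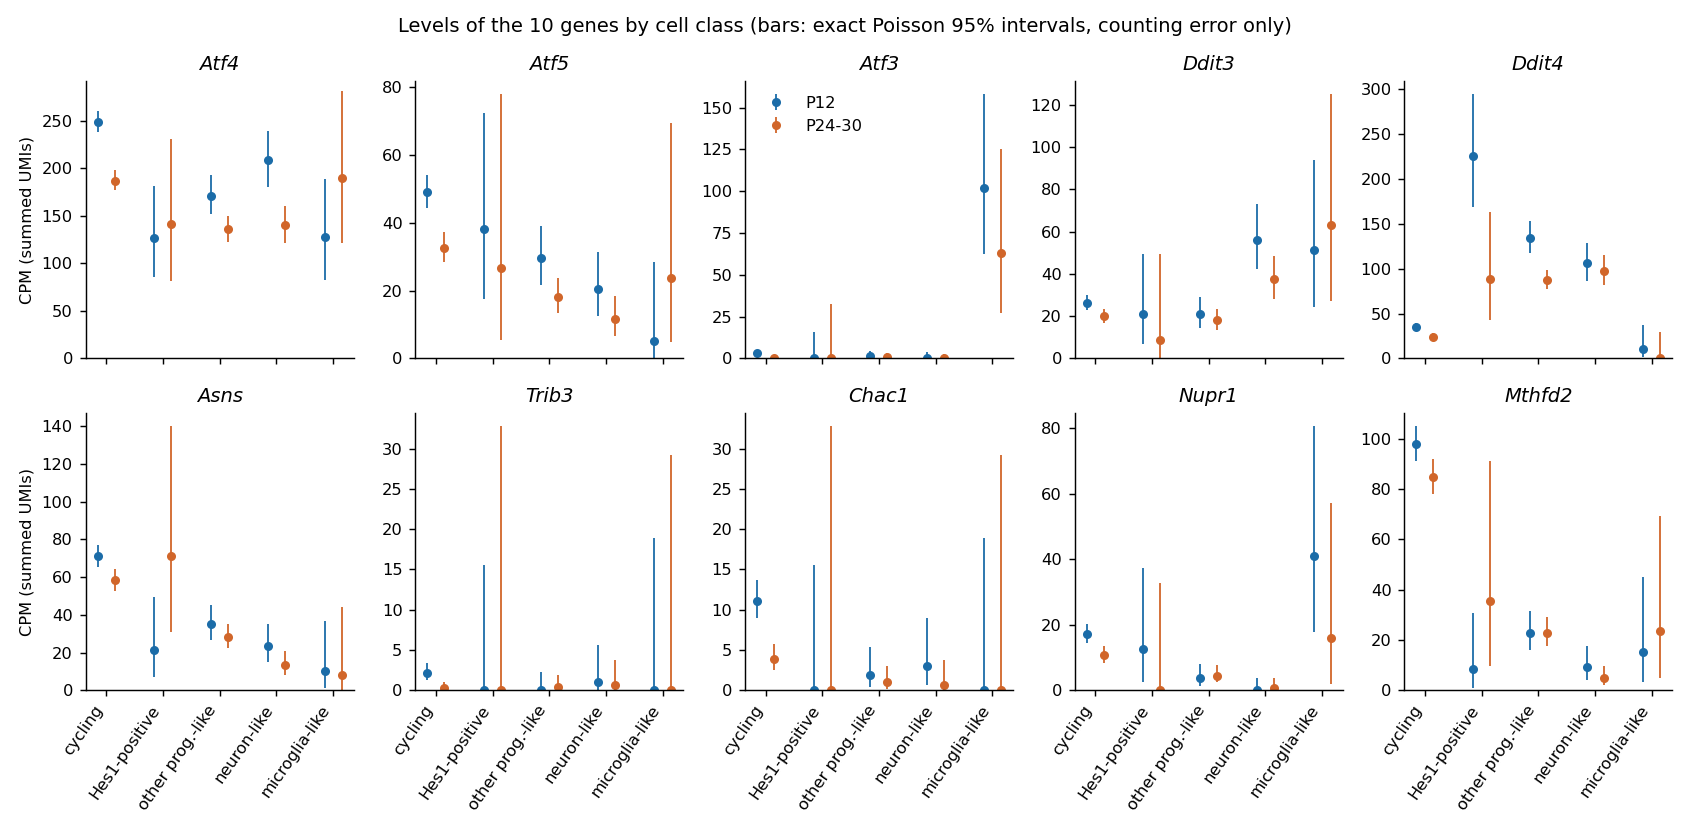
Level of each of the 10 genes, in CPM over summed UMIs, in 5 cell classes of the P12 (blue) and P24-30 (orange) libraries, with points for the level and bars for exact Poisson 95% intervals. Asns and Mthfd2 were highest among P12 classes in cycling cells, Ddit4 was lowest among tumour classes there, and Atf3 stood apart in microglia-like cells at 102 and 63.2 CPM.

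Within cycling P12 cells, those with many G2/M marker UMIs were set beside those with few. Ddit4 was lower in the former, at a ratio of 0.667 (0.523 to 0.85), and Ddit3 higher, at 1.36 (1.02 to 1.82). Mthfd2 and Asns were nearly equal, at 1.01 (0.872 to 1.16) and 1.08 (0.91 to 1.28). At P24-30 Ddit4 had a ratio of 1.07 (0.776 to 1.48) and Ddit3 of 0.951 (0.66 to 1.36), so neither order was seen there. Mthfd2 had a ratio of 0.764 (0.64 to 0.91) at P24-30.

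Cells that were neither cycling nor neuron-like and had no Hes1 UMI are called other progenitor-like here. Ddit4 was 3.85-fold (3.21 to 4.62) higher in them than in cycling cells at P12 and 3.59-fold (2.94 to 4.4) at P24-30. Ddit3 was 2.68-fold (1.72 to 4.24) higher in neuron-like than in other progenitor-like cells at P12 and 2.08-fold (1.39 to 3.09) at P24-30. Ddit4 was thus higher than in cycling cells in both non-cycling classes, whereas Ddit3 was higher in the neuron-like one.

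Hes1 encodes a repressor of neuronal differentiation downstream of Notch and Hedgehog signalling. Hes1-positive P12 cells outside cycling and neuron-like cells numbered 137. Ddit4 had 53 UMIs and 225 CPM (168 to 294) in them, against 219 UMIs and 134 CPM (117 to 153) in the 925 other progenitor-like cells, a ratio of 1.67 (1.21 to 2.27). This difference depended on which cells were taken: the ratio was 0.996 without a filter on cells, 0.633 with all Hes1-positive tumour cells, 1.08 without the deepest cells and 1.18 with another random draw. Against cycling cells, Ddit4 was 6.44-fold (4.71 to 8.67) higher and Mthfd2 lower, at a ratio of 0.0867 (0.0105 to 0.314) from 2 UMIs. Atf4 stood at 127 CPM (85.8 to 182), and Asns at 21.2 CPM from 5 UMIs. Atf3, Trib3 and Chac1 had UMIs in 0 of 137 cells, where 3 counts would be a share of cells with a UMI of 2.19% and the exact 95% limit is 2.66%. Of 4 genes compared with other progenitor-like cells, 1 was at least 1.5-fold higher, beside 7.15% of 6130 genes, and 1, Asns, was lower at 0.606 (0.189 to 1.5), beside 13.1%, a call that was lost without a filter on cells and with stricter cutoffs. At P24-30 only 47 cells were Hes1-positive, and Ddit4 stood at 88.8 CPM from 10 UMIs against 87.4 CPM. Asns had the other order there, at 71.1 CPM from 8 UMIs against 28.4 CPM, a ratio of 2.5 (1.04 to 5.16). Of 6 genes compared, 2 were higher, beside 16% of 6959 genes, and 1 was lower, beside 24.4%.

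Much of the Atf3 signal lay outside the tumour classes, in microglia-like cells, whose microglia and macrophage markers summed to 33460 CPM at P12 against 29.25 CPM in cycling cells. The 76 microglia-like P12 cells held 20 of its 52 UMIs, at 102 CPM (62.4 to 158), against 3.38 CPM in cycling cells, a ratio of 30.3 (16.1 to 56.1). At P24-30 the 48 microglia-like cells held 8 of its 15 UMIs, at 63.2 CPM. Immediate early genes, which dissociation can induce, summed to 639 and 1051 CPM in these cells, against 478.5 and 589.5 CPM in cycling cells. In neuron-like cells, with 0 Atf3 UMIs in both libraries, they summed to 621.9 and 649.4 CPM. The part of the immediate early genes in the Atf3 level was not tested. Nupr1 was also higher in microglia-like than in cycling P12 cells, at a ratio of 2.39 (1.01 to 4.84) from 8 UMIs. The same ratio for Ddit3 was 1.95 (0.92 to 3.65) from 10 UMIs at P12. At P24-30 it was 3.18 (1.35 to 6.46) from 8 UMIs, so a higher Ddit3 level was not limited to neuron-like cells.

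The P12 cells were also clustered without using the 10 genes, so that their levels could be read across clusters. A cluster set against the rest is no test, and other ATF4 targets did take part in the clustering, so these values are a description. Several of the genes peaked together in 1 cycling cluster of 1150 cells (20.7% of clustered cells), led by the linker histone genes Hist1h1b, Hist1h1e and Hist1h1a, and Mthfd2 was among its 10 leading genes. That cluster stood at 21040 CPM of G2/M and 10770 CPM of S markers.

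Chac1 had 62 of its 102 clustered UMIs there, 60.8%, at 23.3 CPM (17.9 to 29.8). Nupr1 had 55.3% of its UMIs there, at 33 CPM (26.5 to 40.7), Mthfd2 49.9%, at 164 CPM (149 to 180), and Trib3 12 of 19 UMIs. Asns stood at 100.3 CPM (88.6 to 113) and Atf4 at 329 CPM (308 to 352). The cycling cluster led by mitosis genes such as Ube2c and Cdc20 (1162 cells) had 68.2 CPM (59.4 to 78.1) of Mthfd2, 66.9 CPM of Asns, 6.76 CPM of Chac1 and 229.8 CPM of Atf4. The cycling cluster led by replication genes such as Ung, Cdc6 and Mcm2 (858 cells) had 72.8, 57.1, 6.16 and 193 CPM of the same genes. Cycling cells were thus unlike one another in these genes, while Ddit4, at 29.6 to 37.5 CPM, was low in all 3 clusters. A smaller cycling cluster of 248 cells, led by Hist1h2bc, Ccnb2 and other genes, had 56.6 CPM (36.6 to 83.5) of Ddit4, 61.1 CPM (40.3 to 88.9) of Atf5, 38.5 CPM of Mthfd2 and 0 UMIs of Chac1. Ddit3 and Atf5 did not share the peak: Ddit3 had 28.5 CPM in the histone cluster and 30.6 in the mitosis cluster, and Atf5 53.3 and 52.8. Ddit4 was highest in the cluster led by Ttr, Enpp2 and other choroid plexus genes together with Hes1 (128 CPM, 113 to 145, 1137 cells) and in the neuronal cluster led by Cntn2 and Neurod1 (119.9 CPM, 799 cells).

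**Figure D2:**
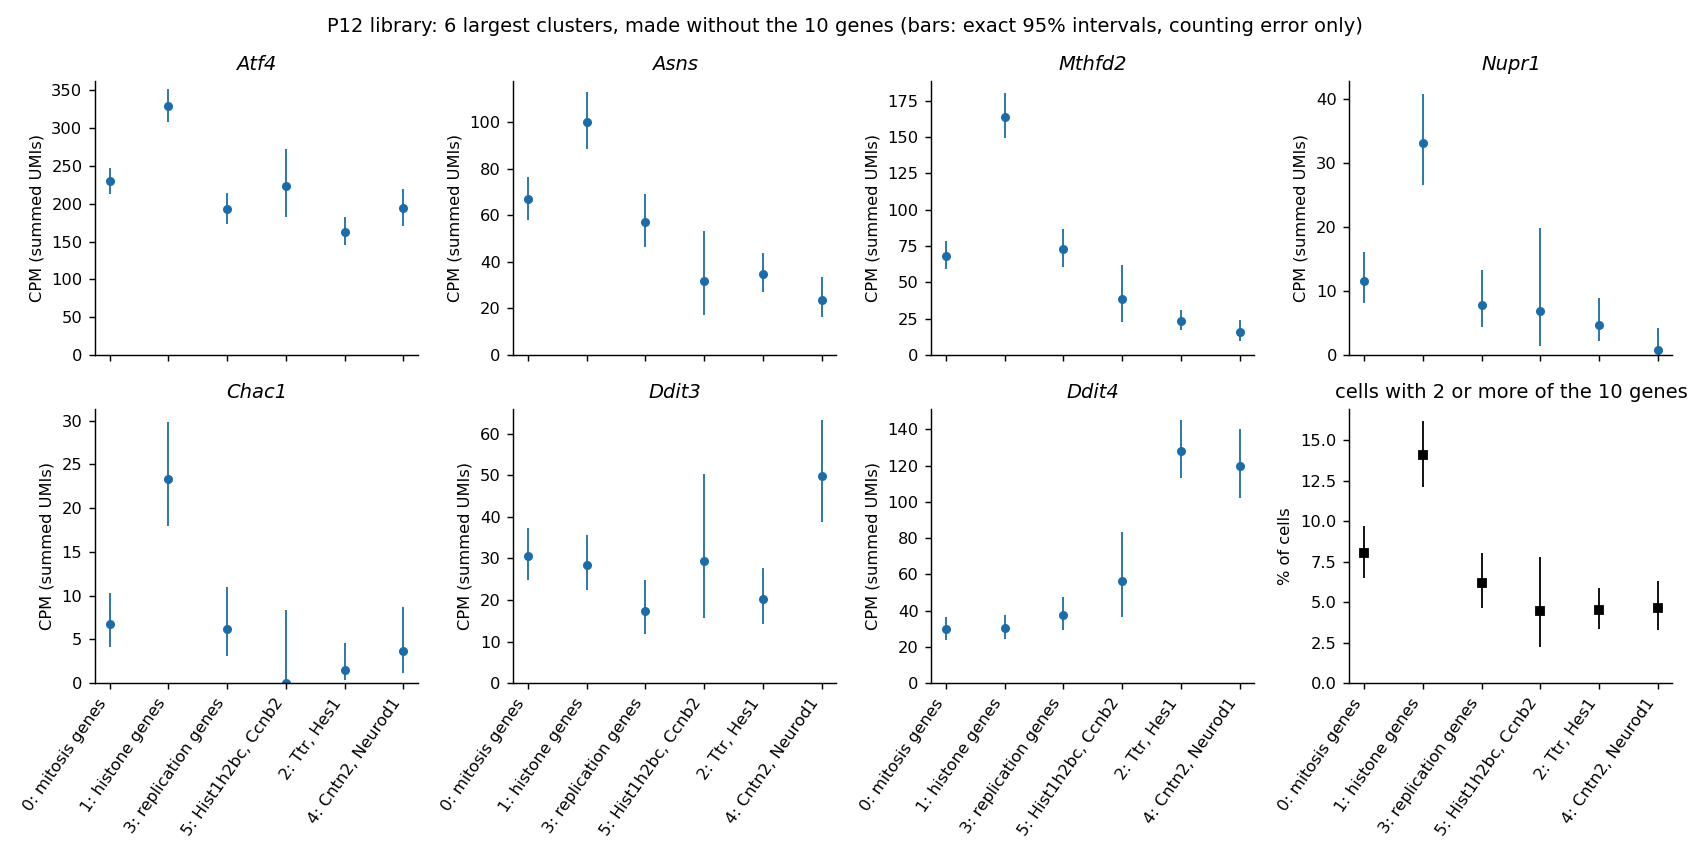
Level in CPM of 7 of the genes in the 6 largest P12 clusters, and the share of cells with UMIs of 2 or more of the 10 genes (black squares), with exact 95% intervals as bars. The histone gene cluster was highest among the 6 for Atf4, Asns, Mthfd2, Nupr1 and Chac1 and for the share of cells with 2 or more genes, at 14.1%.

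Column names of the P24-30 file carry tags Hi_G1 to Hi_G16, which no label explains. If they are groups made from expression, a difference between them is no test, and levels by tag are given as a description. Tags G1, G2, G3, G6 and G16 were more than 50% cycling cells. Tag G8 (35 cells) was made up of microglia-like cells and G9 (11 kept cells) mostly of astrocyte-like cells, so 14 tags with at least 50 cells are compared.

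Mthfd2 ranged from 2.02 CPM (2 UMIs) in G13 through a median of 29.8 to 124 CPM (111 to 138) in G2, a ratio of 61.6 (16.9 to 511) between the extremes. Asns ranged from 0 CPM in G11 through 30.6 to 70.7 CPM (61 to 81.4) in G2. With a floor of 3 counts in G11 in place of 0, the ratio was 4.5, and its exact lower limit was 3.62. Atf4 ranged from 108 CPM in G10 to 217 CPM (192 to 245) in G1, a ratio of 2 (0.959 to 5.03). G2 and G1 were the highest tags for Asns, Mthfd2, Atf4, Atf5 and Chac1, and 25 of the 31 Chac1 UMIs of the library lay in them (18 and 7). Ddit4 ran the other way, from 20.1 CPM (15.2 to 26.2) in G2 to 113 CPM (79.8 to 156) in G12, a ratio of 5.63 (3.61 to 8.69). Ddit3 was lowest in G3, with 1 UMI, and highest in G11, G12 and G13, the tags with over 50% neuron-like cells, at 40.3 to 47.1 CPM. Asns ranged from 40.4 to 70.7 CPM in the tags with mostly cycling cells and from 0 to 40.1 CPM in the 9 other tags. These ranges nearly met: G6 stood at 40.4 CPM (29.5 to 54.1) and G5 at 40.1 CPM (28.2 to 55.3). The intervals of these tags overlapped, and the share of all genes that separate the tags in this way was not computed. The ranges of Mthfd2, Ddit4 and Atf4 overlapped between the 2 kinds of tag. For Mthfd2 and Ddit4 the overlap came only from G10, at 46.5 CPM (3 UMIs) and 31 CPM (2 UMIs). The remaining tags without mostly cycling cells reached at most 32.5 CPM of Mthfd2 (G5), against at least 35.7 CPM in G16. Their Ddit4 was at least 58.5 CPM (G5), against at most 47.6 CPM in G6. The intervals of G5 overlapped those of G16 for Mthfd2 and of G6 for Ddit4.

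The share of cycling cells did not order the tags by itself. G16 had 90.4% cycling cells and G2 93.8%, yet Mthfd2 stood at 35.7 CPM (26.4 to 47.2) in G16, against 124 CPM in G2. Nupr1 stood at 7.29 and 17.2 CPM, Asns at 44.5 (34 to 57.1) and 70.7 CPM, and Atf4 at 155 (135 to 178) and 206 CPM (189 to 224). The tags differed in cycle markers, with 33690 CPM of G2/M and 3677 CPM of S markers in G16 and 14800 and 8152 CPM in G2. The high Nupr1 value of G14, 52.2 CPM, came from 1 cell of 4121 UMIs with 33 Nupr1 UMIs and 159 UMIs of 5 vascular markers, and was 0 without that cell.

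**Figure D3:**
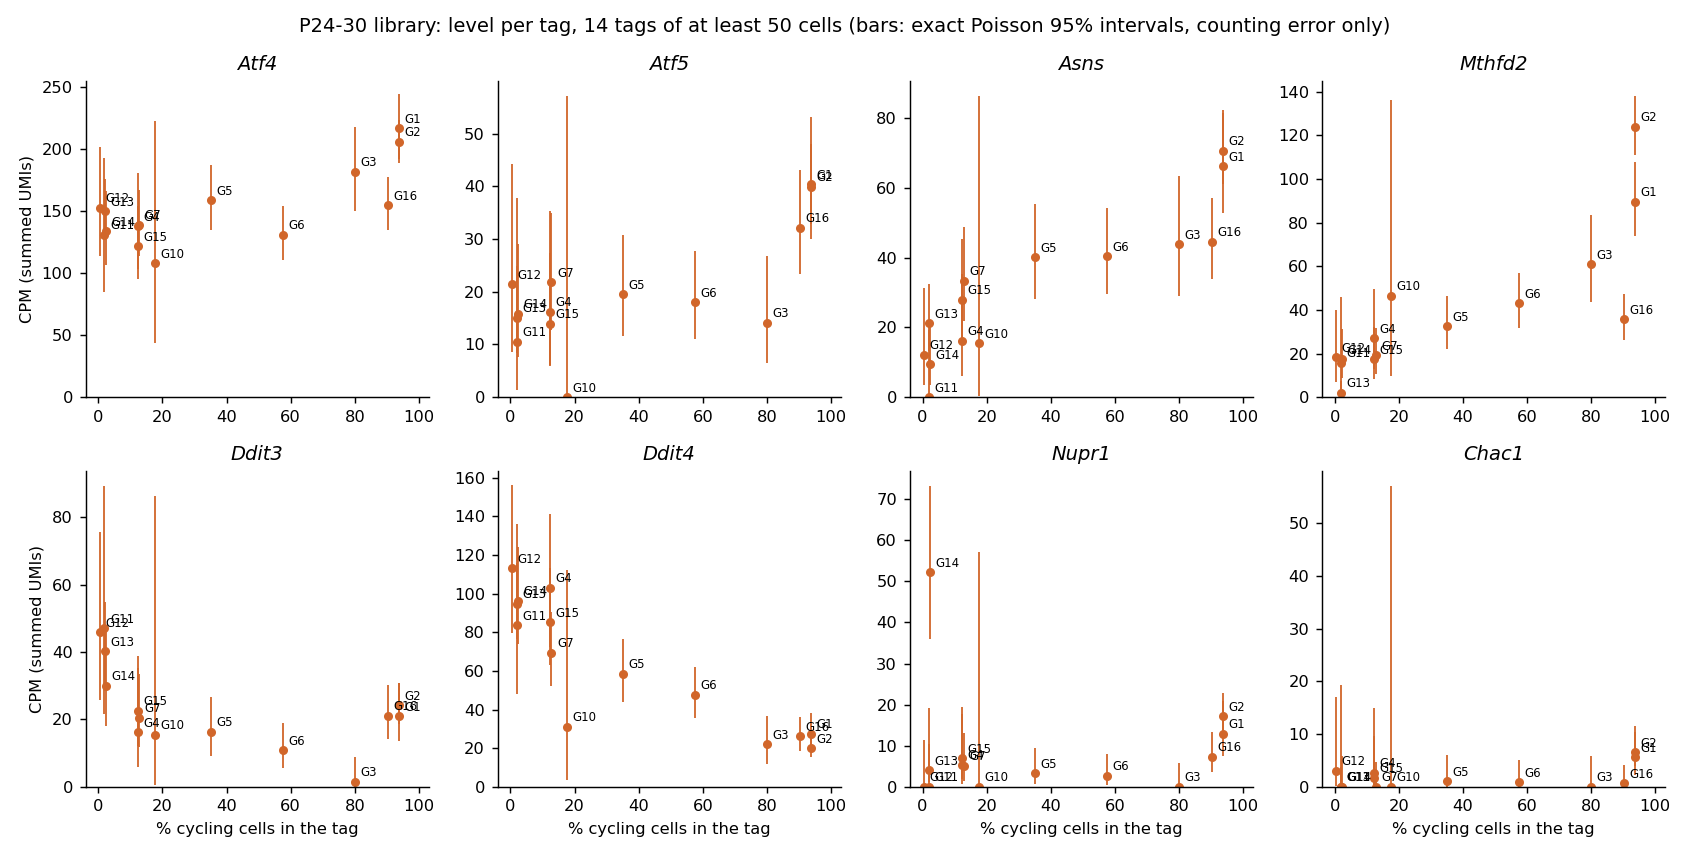
Level in CPM of 8 of the genes in the 14 P24-30 tags with at least 50 cells (vertical axis, bars are exact Poisson 95% intervals) against the percentage of cycling cells in the tag (horizontal axis). Asns and Mthfd2 were highest in G1 and G2, Ddit4 was highest in tags with few cycling cells, and G16 lay below G1 and G2 for Mthfd2 in spite of 90.4% cycling cells.

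For the 5 members with at least 300 UMIs at P24-30, the genes of most similar pattern were named by Pearson r of log2(CPM + 10) over the 14 tags, among 5687 genes. All points come from 1 library, the tags share its preparation, and the coefficients are a description. Mthfd2 was most like Tk1 (0.92), a thymidine kinase, and the histone genes Hist1h3b and Hist1h3h (0.91 each). Asns was most like Myod1, Prps1 and Prim1 (0.94 each). Atf4 was most like Hist1h3i (0.88), Nars (0.86), an asparaginyl-tRNA synthetase, and Tuba1b (0.84), and Atf5 was most like Nars (0.94), Phf17 and Lmo4 (0.93 each). All of these, and Atf4 and Atf5 themselves, were lowest in G10, a tag of 64559 UMIs in 73 cells. It held 7 Atf4 and 0 Atf5 UMIs, and its part in these coefficients was not tested. Ddit4 was most like 2610203C20Rik (0.96), Dixdc1 and Chd4 (0.95 each). Among the 10 genes themselves, Atf4 with Atf5 gave 0.79, Asns with Mthfd2 0.65, Ddit4 with Asns -0.7 and Ddit4 with Mthfd2 -0.84.

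Between ages, Chac1, Atf3 and Trib3 were lower at P24-30 by more than 1.5-fold relative to the median gene, and the other 7 genes differed by less. Ratios of CPM were divided by the ratio of the median gene, 0.833. Chac1 went from 8.675 CPM at P12 to 2.563 CPM in the older library, at a relative ratio of 0.355 (0.229 to 0.534). Atf3 went from 4.379 to 1.24 CPM, a relative ratio of 0.34 (0.178 to 0.613), and Trib3 from 19 to 4 UMIs, 0.248 (0.0614 to 0.746). The other 7 lay between 0.743 (0.644 to 0.856) for Atf5 and 1 (0.896 to 1.12) for Ddit4, with Atf4 at 0.88 (0.83 to 0.932), Asns at 0.887 (0.791 to 0.995) and Mthfd2 at 0.91 (0.822 to 1.01). The intervals of Atf5, Atf4 and Asns lie below 1, and those of Ddit3, Ddit4, Nupr1 and Mthfd2 include it. Of 9 genes with enough UMIs, 0 were at least 1.5-fold higher at P24-30, beside 18.8% of 12107 genes, and 2 were lower, beside 11.2%. Their median log2 ratio was -0.173. In cells outside the glial, immune, vascular and choroid types, 1 gene was lower, since Atf3 had too few UMIs left. The mitochondrial share also differed between the libraries, as given above, and its part in these ratios was not tested. The share of cycling cells differed too, and ratios within classes follow.

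Within cycling cells alone, Chac1 had a relative ratio of 0.438 (0.272 to 0.685), from 26 against 89 UMIs, and Atf3 had 2 against 27 UMIs. Asns stood at 58.3 against 71.1 CPM and Mthfd2 at 84.7 against 97.8 CPM there. Relative to the median gene of cycling cells, whose ratio was 0.797, these were 1.03 (0.902 to 1.17) and 1.09 (0.974 to 1.21). Among genes compared within cycling cells, 11.1% were lower and 16.1% higher. In neuron-like cells Atf4 stood at 0.79 (0.648 to 0.963) and Ddit3 at 0.786 (0.531 to 1.16).

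**Figure D4:**
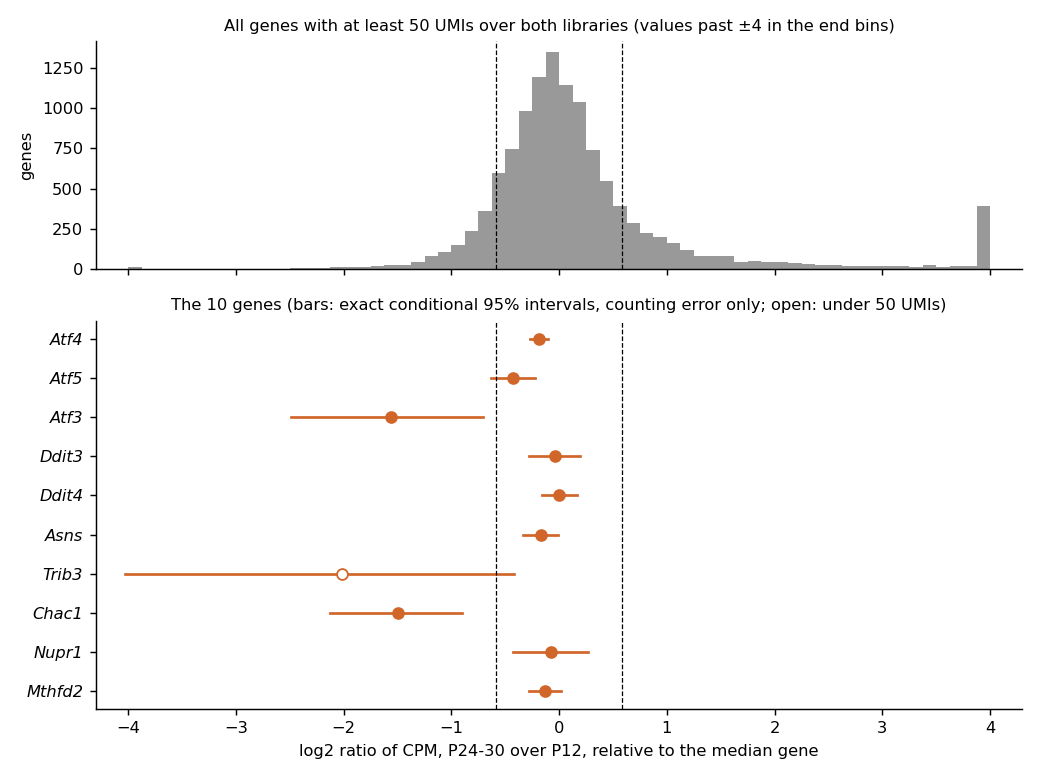
Histogram of the log2 ratio of CPM, P24-30 over P12 relative to the median gene, for 12107 genes (upper panel), and the same ratio for the 10 genes with exact conditional 95% intervals (lower panel, open symbol under 50 UMIs). Dashed lines mark 1.5-fold, and Chac1, Atf3 and Trib3 lie below the lower line while the other 7 genes lie between the lines.

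The rest of the pathway was read from 13 lists of 144 genes, of which 21 were at least 1.5-fold higher at P24-30 and 16 lower relative to the median gene, against 14 and 37 without that division. Only list genes with at least 50 UMIs enter these counts, and they stand beside the 18.8% higher and 11.2% lower of all genes, so none of the list counts below is read as a property of its list. Of 12 genes of the eIF2 kinases, eIF2 and eIF2B, 2 were at least 1.5-fold higher at P24-30, Eif2s3x (3.37) and Eif2s2 (1.97), both eIF2 subunits, and 0 were lower. The kinase Eif2ak3 was the lowest at 0.741, followed by Eif2b5 at 0.757. Of 12 amino acid synthesis genes 2 were higher, Phgdh at 2.09 and Aldh18a1 at 1.76, and 3 were lower, among them Aldh1l2 at 0.592 and Gpt2 at 0.62. Of 9 amino acid transporters 1 was higher, the cystine carrier Slc7a11 with 197 against 14 UMIs, and 1 lower, the cationic amino acid carrier Slc7a3 at 0.321 (0.216 to 0.467). Of 12 aminoacyl-tRNA synthetases Aars was higher at 1.82, and Lars (0.497) and Nars (0.573) were lower. Of 12 other ATF4 targets 0 were higher and 3 lower, with Vldlr at 0.498 and the translation inhibitor Eif4ebp1 at 0.522. Of 17 endoplasmic reticulum chaperone genes 1 was higher (Calr, 2.05) and 1 lower (Atf6, 0.636). Heat shock genes had 3 of 7 higher, led by Hspa8 at 6.75 and Hspe1 at 2.21. Over all genes, 395 had a log2 ratio of at least 3.875, and the part of gene annotation in such large differences between the 2 files was not tested.

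Across P12 classes, 11 of 11 amino acid synthesis genes were at least 1.5-fold higher in cycling than in neuron-like cells, led by Phgdh at 7.37 (3.71 to 17.2) and Pck2 at 3.23, the lowest being Mthfd1l at 1.54 and Aldh18a1 at 1.56. Of 7 amino acid transporters 6 were higher, led by Slc7a5 at 8.14 and Slc7a3 at 6.26. Of 12 tRNA synthetases 4 were higher, led by Cars at 3.62. These counts stand beside the 24.7% of all genes that were higher, to which the share of synthetases was close. The median log2 ratios of these lists were 0.85, 1.9 and 0.56. The minimum of UMIs was again on the 2 classes summed. Of 11 other ATF4 targets 7 were higher, led by Eif4ebp1 at 8.14 and Vldlr at 4.62, and 2 were lower, the autophagy receptor Sqstm1 at 0.42 and Klhl24 at 0.579. Of 16 endoplasmic reticulum chaperones 2 were higher and 1 lower, with a median of 0.29. Of 7 mTORC1 partners of Ddit4, 1 was higher and 4 lower, including Mtor at 0.553 and Tsc2 at 0.595. At P24-30 the same lists had 6 of 11 amino acid synthesis genes, 4 of 7 transporters and 6 of 12 synthetases higher in cycling cells, beside 17.7% of all genes. In these lists 1 transporter, Slc7a11 at 0.367 (0.255 to 0.534), and 1 synthetase, Sars at 0.625 (0.566 to 0.691), were lower. Of 7 mTORC1 partners 0 were higher and 1 lower at P24-30, Tsc2 at 0.259, while Mtor stood at 1.23 (0.678 to 2.42).

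Co-occurrence was then read in single cells at equal depth. At P12, 2023 of 5407 tumour cells (37.4%) had a UMI of at least 1 of the 10 genes, 411 (7.6%, 6.91 to 8.34) of at least 2 and 90 (1.66%) of at least 3. At P24-30 these were 1316 of 4469 cells (29.4%), 201 (4.5%, 3.91 to 5.15) and 31 (0.694%). Without reduction to equal depth, 20.2% and 16.5% had at least 2, so the share depends on depth. It also depends on how common each gene is, and the share for independent genes was not computed. The shares by class, cluster and tag below therefore do not separate co-occurrence from the levels of the genes.

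By class, 8.79% (7.87 to 9.78) of cycling P12 cells had at least 2 of the genes, 7.3% (3.56 to 13) of Hes1-positive, 4.86% (3.57 to 6.46) of other progenitor-like and 3.75% (2.39 to 5.58) of neuron-like cells. Cells past both the cycling and the neuron cutoffs had the highest share among P12 tumour classes, 10.8% (7.2 to 15.5, 26 of 240). That interval overlapped the one of cycling cells. The interval of the Hes1-positive cells overlapped those of all other classes. At P24-30 the shares were 6.06% (5.11 to 7.14) of cycling, 2.6% of other progenitor-like and 3.15% of neuron-like cells. Cells past both cutoffs had 5.56% (2.26 to 11.1) there. Microglia-like cells had 4 of 76 at P12 (5.26%, 1.45 to 12.9) and 5 of 48 at P24-30 (10.4%, 3.47 to 22.7), the latter above the share of cycling cells with an interval that includes it. Among P12 clusters the histone gene cluster had the highest share of the 6 largest, 14.1% (12.1 to 16.2), against 8% (6.51 to 9.72) in the mitosis cluster and 6.18% (4.66 to 8) in the replication cluster. It held 50 cells with at least 3 of the genes, against 21 and 10 in the other two.

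By P24-30 tag, 74 of 888 cells in G2 (8.33%, 6.6 to 10.3) and 27 of 352 in G1 (7.67%, 5.12 to 11) had at least 2 of the genes. In G16, of similar cycling share, 14 of 417 had (3.36%, 1.85 to 5.57), and in G3 4 of 219 (1.83%). G2 alone held 20 of the cells with at least 3 genes. The largest sets in 1 cell were 5 genes, in 4 P12 cells, of which 3 were cycling. One of these had Atf5, Ddit3, Asns, Trib3 and Nupr1 within 2395 UMIs, and another Atf4, Asns, Trib3, Nupr1 and Mthfd2 within 1402. At P24-30 the 4 tumour cells with 4 genes were all cycling cells of G2. Of these, 3 had Asns, Nupr1 and Mthfd2 together, beside Atf5 or Ddit4, and the other had Atf4, Atf5, Ddit3 and Mthfd2. Outside the tumour classes, 1 microglia-like cell of G8 also had 4 genes.

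Pairs were counted where both genes had at least 50 tumour cells with a UMI. At P12, 9 of 21 such pairs had an odds ratio of at least 1.5 and 1 of at most its inverse, with a median of 1.3. At P24-30, 7 of 15 had and 3 were at most the inverse, with a median of 1.4. The first number was 14 at P12 without thinning, and 4 at P24-30 with another random draw. Within cycling cells, 9 of the 21 pairs were at least 1.5 and 0 at most the inverse at P12, with a median of 1.44. At P24-30, 10 of the 15 pairs were and 2 were at most the inverse, with a median of 1.75. The same shares among other pairs of genes of like level were not computed. The pairs share cells and are not independent, and no p-value is given.

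Asns and Mthfd2 went together in both libraries. At P12, 14% (10.3 to 18.3) of the 315 Asns-positive cells had a Mthfd2 UMI, against 5.68% (5.06 to 6.35) of the others, and at P24-30 12.9% (8.16 to 19) against 4.04% (3.47 to 4.67). Within cycling cells the odds ratios were 2.2 and 2.53. Pairs were not recomputed within clusters, and both genes were highest in the histone gene cluster. Asns was found in 13.6% (9.35 to 18.8) of Atf5-positive P12 cells, against 5.5%, and Nupr1 in 4.76% (2.69 to 7.73) of Asns-positive cells, against 0.903%. Of 61 Nupr1-positive P12 cells, 16 had Mthfd2 (26.2%, 15.8 to 39.1), and all 16 were cycling. Chac1, under the minimum for pairs, was found in 11 of 315 Asns-positive cells (3.49%) against 0.668% of the others.

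Atf4 was more weakly tied to the same genes. Mthfd2 was found in 8.58% (6.96 to 10.4) of Atf4-positive P12 cells, against 5.57% (4.91 to 6.29), and Asns in 7.07% (5.6 to 8.78) against 5.52%. Ddit4 was found in 6.13% of Atf4-positive cells and 6.07% of the others, an odds ratio of 1.01. Ddit4 with Mthfd2 gave 0.663 over all P12 tumour cells and 1.18 within cycling cells, and 0.707 and 1.8 at P24-30, so the low value over all cells was not found within the cycling class.

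Cycling cells with at least 2 of the genes were last compared with cycling cells that had none. The 10 genes are higher in them by choice and are left out. The groups had similar depth and summed cycle markers: at P12, 307 against 2129 cells with median UMIs of 1929 and 2039, mitochondrial shares of 7.5% and 7.72%, and G2/M marker levels of 23830 and 24010 CPM. S markers stood at 9332 and 8619 CPM. The groups were not matched by cluster, and the histone gene cluster held a larger part of the P12 cells with 2 or more genes, as given below.

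The other ATF4 targets were higher in these cells, and the endoplasmic reticulum chaperones were not. At P12, 10 of 11 amino acid synthesis genes were at least 1.5-fold higher, 6 of 7 transporters, 10 of 12 tRNA synthetases and 6 of 9 other targets, together 32 of 39, beside 5.05% of 9283 genes. The list medians were 1.2, 1.3, 1 and 1.1 on the log2 scale, where the 5th to 95th percentile of all genes ran from -0.803 to 0.59. Aldh1l2, a mitochondrial folate enzyme, stood at 62.3 against 14.9 CPM (4.18-fold, 2.8 to 6.19) and Pck2, which makes phosphoenolpyruvate in mitochondria, at 3.77-fold (2.9 to 4.88), while Psat1 was at 1.5. Slc7a3 stood at 7.17-fold (4.37 to 11.7) and Slc7a1 at 3.46-fold, with Slc1a5 at 1.58 and Slc38a2 at 1.21. Cars stood at 2.89-fold (2.17 to 3.83) and Nars at 2.39-fold (2.23 to 2.56), with Mars at 1.48 and Wars at 1.11. Stc2 stood at 6.61-fold (3.74 to 11.6) and Eif4ebp1 at 263 against 63.4 CPM, with Klhl24 at 0.735 and Sqstm1 lower at 0.597.

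Of the 16 endoplasmic reticulum chaperones of the ATF6 and XBP1 arms, 0 were higher and 1 lower, beside 9.42% of all genes lower, and the median was -0.15. Sdf2l1 (1.19) and Canx (1.02) were the highest and Edem1 (0.567) and Calr (0.721) the lowest. The ATF4 partner Cebpg stood at 2.19-fold (1.87 to 2.56), the eIF2 subunit Eif2s2 at 1.98-fold (1.78 to 2.21), and 0 of 3 brakes of the response were past 1.5-fold. Of 8 p53 targets only Cdkn1a was higher, at 2.75-fold (2.04 to 3.68), and of 8 immediate early genes only Ier2, at 1.74. Within the histone gene cluster alone, 25 of the 34 ATF4 targets with enough UMIs there were at least 1.5-fold higher, from 149 against 579 cells. The share over all genes was not computed there, so this count has no background to be read against. That cluster held 149 of the 307 cycling cells with 2 or more genes and 579 of the 2129 with none.

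At P24-30, with 135 against 1530 cells, 5 of 9 amino acid synthesis genes, 5 of 7 transporters, 7 of 12 synthetases and 3 of 8 other targets were at least 1.5-fold higher. Together these were 20 of 36, beside 7.83% of 8325 genes, and the list medians were 0.6, 0.88, 0.64 and 0.22. Gpt2 (2.71), Shmt2 (2.67), Slc7a5 (2.91, 1.97 to 4.2), Slc7a1 (2.45), Yars (2.05) and Tars (1.99) led their lists, and Eif4ebp1 stood at 3.88-fold (2.75 to 5.4). Of 16 chaperones 0 were higher and 2 lower, beside 13% of all genes lower. These were Sdf2l1 at 0.505 and Edem1, with 0 against 57 UMIs. When Atf4 was not counted among the genes that chose the cells, 4 chaperones were higher at P24-30, from 60 cells. Of 9 eIF2 pathway genes 3 were higher, among them Eif2ak1 at 1.6 (0.947 to 2.55) and Eif2s2 at 1.54 (1.38 to 1.72), and of 3 brakes 1, Ppp1r15b at 1.91 (1.03 to 3.32). Cebpg stood at 1.45 (1.09 to 1.91) and Cdkn1a at 1.83 (1.22 to 2.67).

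**Figure D5:**
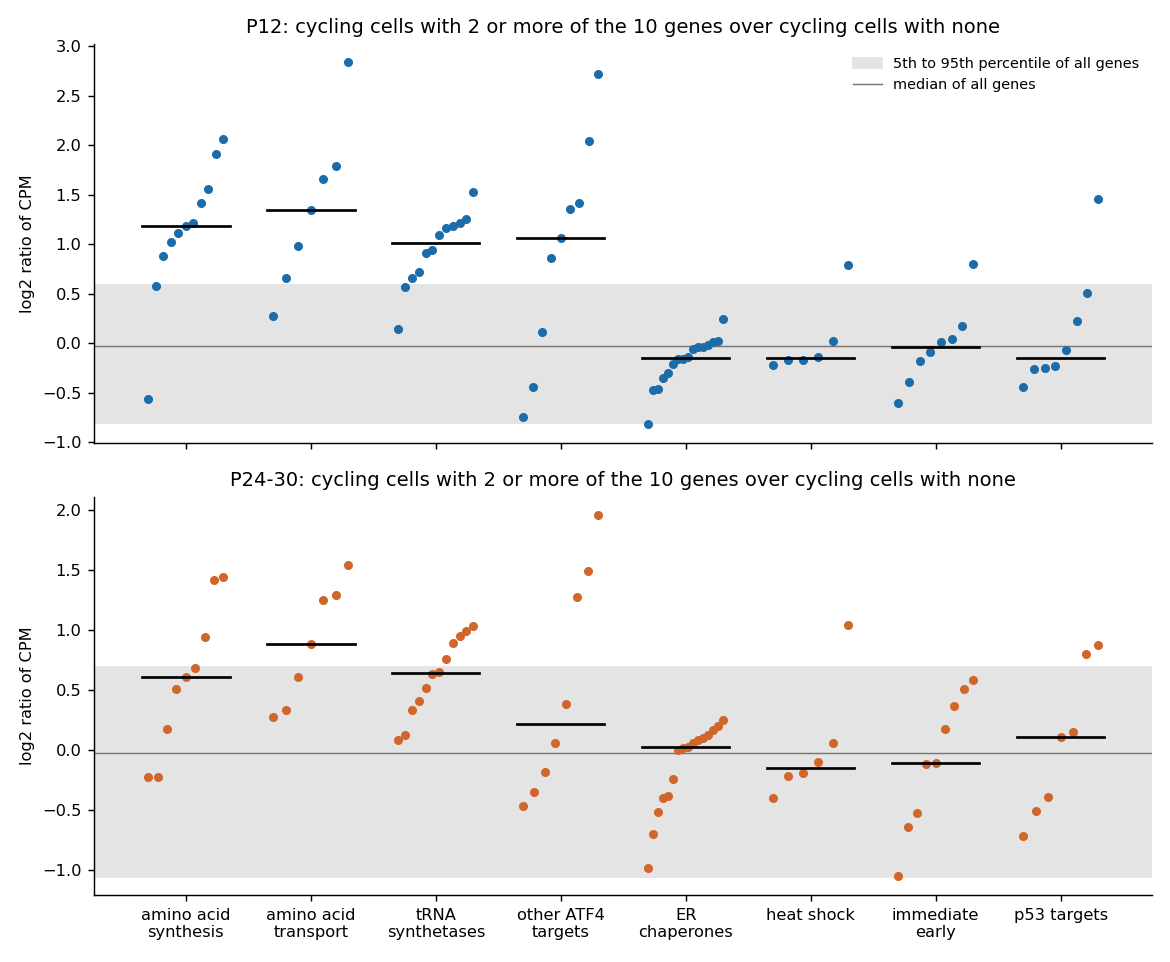
Log2 ratio of CPM in cycling cells with UMIs of 2 or more of the 10 genes over cycling cells with none, 1 point per gene of 8 lists (the 10 genes themselves are in none of them), for P12 (upper panel) and P24-30 (lower panel). Black bars mark list medians and the grey band the 5th to 95th percentile of all genes; at P12 the medians of the 4 ATF4 target lists, 1 to 1.3, lie above the band's edge at 0.59, and that of the chaperones is -0.15.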

How the data were processed

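The labels' protocols describe Drop-seq of dissociated tumour cells, and the submitters' processing notes name CASAVA and mm10. No source used here names the aligner, the counter or the annotation. For P12 the authors deposited raw counts of 24858 genes in 6000 barcodes, taken here as UMIs. For P24-30 they deposited values on a natural log scale, after scaling each cell to a common total and adding 1. All 6195642 values above 0 turned back into whole UMIs within 0.001 (100%), and 99.8% of the UMIs implied by the steps lie in listed genes. Gene names were matched directly (16055) or through RefSeq synonyms (489).

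Cells needed 500 UMIs or more and a mitochondrial share of 20% or less, which removed 9 and 268 P12 cells and 153 and 49 P24-30 cells. No doublet caller was run, so doublets may remain in any class. Cells were thinned to 1000 UMIs with a fixed seed, and classes were cut from marker UMIs in the thinned cells. Glial, immune, vascular and choroid types, with at least 5 UMIs of at least 3 markers, were set aside first. Cells past both cutoffs form a class of their own. The cutoffs were set after the marker distributions had been seen, and 533 P12 and 534 P24-30 cells lie within 2 UMIs of the cycling cutoff, 486 and 509 of the neuron cutoff. P12 cells were also clustered (leidenalg 0.10.2, scikit-learn 1.9.0) without the 10 genes.

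Ratios of summed UMIs have exact conditional intervals and levels exact Poisson intervals, shares Clopper-Pearson intervals (python 3.11.15, numpy 2.4.6, scipy 1.17.1). Genes were compared with at least 50 UMIs over the groups. A gene past 1.5-fold is called higher or lower, which is a size and not a test. The intervals and the ratios were tested on simulated counts. Transcript ends were compared with BLAST+ 2.17.0. The 10 genes and the lists were chosen with earlier results of these data known. Of each list the text names up to the 2 highest and the 2 lowest genes, and for likeness over tags the 3 genes of highest r. Mars, beside Ddit3, was chosen after its value was seen. The value of 1 list gene is not reported here. The comparison of cycling cells with 2 or more of the genes and with none was added after the levels had been seen. The alternatives tried are cell filters, deep cells left out, thinning depth, another random draw, class definitions, gene minimums and scaling.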

Additional observations from a re-analysis of the deposited data

How the results depend on the processing

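With 1 library per age, no replicate can be left out, and no paired analysis was possible because there is 1 library per age. The P12 counts of 5 genes higher and 2 lower in cycling than in neuron-like cells were the same without a cell filter, without the deepest cells, without mitochondrial and ribosomal protein genes, with Leiden classes, with stricter cutoffs and with another draw. Other minimums of UMIs were not run for them, and Chac1, with 89 and 3 UMIs, would miss one of 100. The counts of ATF4 targets higher in cycling cells with 2 or more genes ranged from 25 to 39 at P12 and from 16 to 28 at P24-30. Of the values of single genes, tags and pairs under the alternatives, 327 moved by less than their counting interval, 74 by more, and 14 changed direction.

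Hes1-positive cells gave 0 genes higher and 0 lower without a cell filter and likewise without cells above the 99th percentile of UMIs, 0 lower with stricter cutoffs, 2 higher with all Hes1-positive tumour cells, and 0 higher with another draw. Ddit4 there reversed to 0.996 without a filter and to 0.633 with all Hes1-positive tumour cells. Between ages, 1 gene was lower with a minimum of 100 UMIs, in cells outside the glial, immune, vascular and choroid types, and in cycling cells, and 0 in neuron-like cells. Asns reversed to 1.03 in cycling cells. Without division by the median gene, 37 list genes were lower. The list genes lower in cycling than in neuron-like P12 cells numbered 32 with no minimum of UMIs and 11 with a minimum of 100.

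The share of P12 and P24-30 tumour cells with 2 or more genes was 2.68% and 1.52% when thinned to 500 UMIs, 20.2% and 16.5% unthinned, 3.61% and 1.79% without Atf4, and 3.76% at P24-30 with another draw. Pairs with an odds ratio of at least 1.5 numbered 14 at P12 unthinned and 4 at P24-30 with another draw. Chaperones higher in cells with 2 or more genes numbered 1 in each library when thinned to 500 UMIs, 1 at P24-30 with no minimum of UMIs and 4 at P24-30 without Atf4. Odds ratios that reversed at 500 UMIs were Atf5 with Nupr1 (0), Ddit3 with Asns (0), Asns with Nupr1 (0) and Ddit4 with Mthfd2 (1.19) at P12, and Atf5 with Ddit3 (0) and with Mthfd2 (0.834) at P24-30. Unthinned, Ddit3 with Asns (1.2) and with Mthfd2 (1.42) reversed at P24-30. With another draw Atf5 with Ddit3 (0.799) and with Ddit4 (1.04) did, and without deep cells Ddit3 with Nupr1 at P12 (0.505). The cause was not tested. The other draw, the cycling-only, neuron-only and single-cell alternatives and the alternatives for cells with 2 or more genes were added after seeing the data. Pairs were not recomputed within Leiden classes. Depth limits all values of Trib3, Atf3 and Chac1.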
